A study of Mus musculus with 10 samples.

Results

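The 10 genes described here, Atf4, Atf3, Ddit3, Trib3, Chac1, Gdf15, Asns, Psat1, Phgdh and Slc7a3, belong to the integrated stress response. They were chosen by name, with earlier results of these data known. All 10 were found among the 33006 genes of the count table, and all 10 passed the filter on low counts that left 13522 genes for testing. The study concerns mouse embryonic stem cells that lose NPM1, a nucleolar protein that handles histones, and asks how silenced chromatin and gene expression fare as they replicate their DNA. RNA came from 2 libraries of cells given auxin and 2 libraries of cells without it, all taken 12 h after release from G1. Every library came from E14 cells that carry a degradable form of NPM1, which auxin directs to destruction. The column headers of the count table carry the same cell name throughout and do not state whether it is a single clone. All cells grew with LIF, the MEK inhibitor PD0325901 at 1 µM and the GSK3 inhibitor CHIR99021 at 3 µM. Cells without the degron but with auxin were not analysed here, so loss of NPM1 and an effect of auxin itself cannot be told apart. No label says that the replicates were separate cultures, so the p-values rest on a spread among libraries that may be technical.

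In the integrated stress response, kinases that sense unfolded protein, missing amino acids, viral RNA or lack of haem phosphorylate the translation factor eIF2. General protein synthesis then slows, while the mRNA of the transcription factor ATF4 is translated better, so the level of the Atf4 transcript and the activity of its protein need not move together. ATF4 and its partners switch on genes for amino acid uptake and synthesis, and with ATF3 and CHOP (the product of Ddit3) genes of feedback and cell death. In stem cells that divide fast, the serine made by some of these enzymes feeds glycine and the folate cycle that supplies nucleotide synthesis.

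The libraries held 13353446 and 16046290 counts with auxin, and 14789851 and 15183126 counts without. The Npm1 transcript, which a protein degron need not lower and which therefore does not check the labels, stood at 843 and 767 CPM with auxin, against 1058 and 951 CPM without. CPM are counts scaled to a common library size, with edgeR's TMM factors. Of the stem cell markers, Pou5f1, Sox2 and Nanog stood at 490 CPM or more in every library. Of 10 fibroblast markers, the summed level was 20.8 and 26.8 CPM with auxin, against 11.9 and 14.2 CPM without. Of these, 5 were tested and 2 were called higher (1 or 2 when a library was left out, and 0 with DESeq2), while Lum and Postn had at most 0.0737 CPM. The part of these markers in the results was not tested. Of 10 stem cell markers, 6 were called lower and 2 higher, with a summed level of 5933 and 5794 CPM with auxin, against 6576 and 6337 CPM without. Among them Utf1, a chromatin factor of pluripotent cells, fell most, to 22.5 and 21.7 CPM with auxin, against 153 and 139 CPM without (log2 fold change −2.73, edgeR adjusted p = 3.63e-09). In bulk RNA, fewer cells of a type and less RNA per cell cannot be told apart.

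The 10 genes did not move as a group. With auxin, Atf3 and Gdf15 rose, Atf4, Phgdh and Slc7a3 fell, and Ddit3, Trib3, Chac1, Asns and Psat1 were not called. A gene was called when edgeR's quasi-likelihood adjusted p, taken over all tested genes, was under 0.05. Calls took 27.5% of all tested genes (13% higher and 14.5% lower). The median log2 fold change of the 10 was 0.03, beside 0.01 for all tested genes. In CPM, the libraries with and without auxin did not overlap for 6 of the 10, against 64.8% of all tested genes. Of the 6, 2 lay above with auxin (33% of tested genes did) and 4 below (31.8%), so the share was near that of the table.

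**Figure D1:**
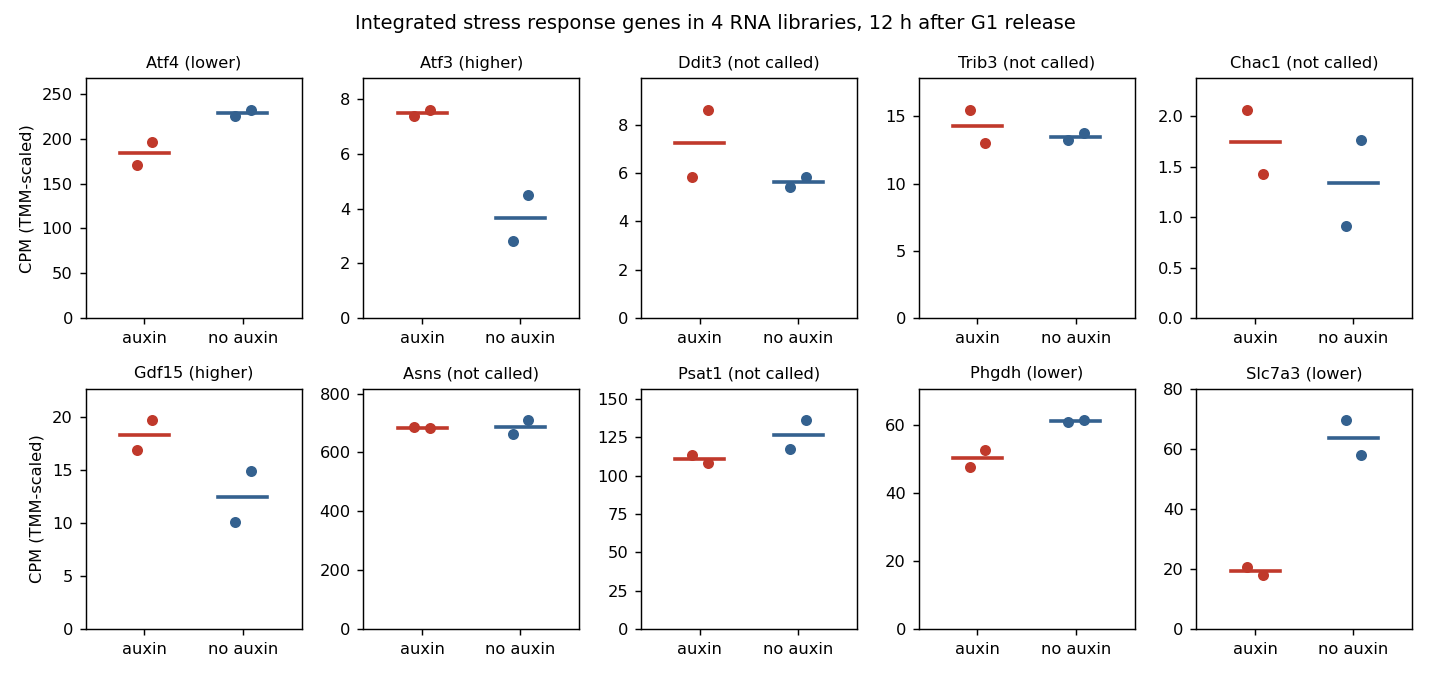
CPM of each of the 10 genes in each library (points), with the group mean (bar), auxin left of no auxin, on linear axes that start at 0. Atf3 stood at 7.37 and 7.60 CPM with auxin and at 2.81 and 4.47 CPM without, Slc7a3 at 20.7 and 17.9 CPM with auxin and at 69.6 and 58.0 CPM without, and Asns overlapped between the groups.

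Among the transcription factors, Atf4 and Atf3 went opposite ways. Atf4 (chromosome 15, 80255184 to 80257540, mm10, plus strand), the central activator of the response, stood at 171 and 196 CPM with auxin, against 225 and 232 CPM without. Both auxin libraries lay below both others. The log2 fold change was −0.32 (SE 0.07, 95% interval −0.46 to −0.17, edgeR adjusted p = 0.00455). With each library left out in turn, the log2 fold change lay between −0.42 and −0.22. Here and below, such a fit takes its spread only from the group that keeps both libraries. Its adjusted p can then be smaller than with all 4, so a call that holds is a weak check.

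Atf3 (chromosome 1, 191170296 to 191183340, minus strand), a bZIP factor induced early in many stresses and known to feed back on stress genes, had 100 and 128 counts with auxin, against 40 and 66 counts without. Both auxin libraries lay above both others, and the auxin pair was the closer one, with 7.49 ± 0.16 CPM against 3.64 ± 1.18 CPM without auxin (SD, n = 2 each). It rose 2.05-fold (log2 fold change 1.04, SE 0.22, edgeR adjusted p = 0.00488). The log2 change was 0.74 without the first no-auxin replicate and 1.41 without the second, and it was called in both cases. Within a library, the ratio of Atf3 to Atf4 per length was 0.0375 and 0.0337 with auxin, against 0.0108 and 0.0167 without.

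Ddit3 (chromosome 10, 127290774 to 127296288, plus strand) encodes CHOP, which promotes cell death under lasting stress. It had 79 and 145 counts with auxin, against 77 and 86 counts without. Only the second auxin library stood out, at 8.61 CPM, while the first, at 5.83 CPM, lay within the range of the libraries without auxin (5.41 and 5.83 CPM). The log2 fold change of 0.38 was not called (95% interval −0.07 to 0.83, edgeR adjusted p = 0.194). One library decided it, since the change was 0.61 without the first auxin replicate (adjusted p = 0.0266) and 0.05 without the second (0.913). Exons of Mars and Gm4189 overlap those of Ddit3 on the other strand, and the counting used strand.

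Of the feedback and effector genes, Gdf15 rose, and Trib3 and Chac1 were not called. Gdf15 (chromosome 8, 70629393 to 70632456, minus strand), a secreted cytokine of the TGF-beta superfamily that rises under many stresses and is also a p53 target, stood at 16.9 and 19.7 CPM with auxin, against 10.0 and 14.8 CPM without. The groups did not overlap, but the gap between the first auxin library and the second no-auxin library was small. It rose 1.47-fold (log2 fold change 0.56, SE 0.17, edgeR adjusted p = 0.0275). The call ended without the first no-auxin replicate (log2 fold change 0.30, adjusted p = 0.173) and with DESeq2 (adjusted p = 0.0524), and the change reached 0.86 without the second no-auxin replicate.

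Trib3 (chromosome 2, 152337422 to 152344032, minus strand), a pseudokinase that dampens ATF4 and AKT, stood at 15.5 and 13.01 CPM with auxin, against 13.2 and 13.8 CPM without. The groups overlapped, and the log2 fold change of 0.07 had a 95% interval of −0.21 to 0.36 (edgeR adjusted p = 0.718). Chac1 (chromosome 2, 119351229 to 119354381, plus strand), which breaks down glutathione, was the lowest of the 10, with 28 and 24 counts with auxin, against 13 and 26 counts without. The groups overlapped. Its log2 fold change of 0.35 had a 95% interval of −0.47 to 1.17 (edgeR adjusted p = 0.518), which leaves changes within that range unresolved. Without the first no-auxin replicate the value was −0.038, and without the second 0.90.

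The genes of amino acid supply held the steepest change of the 10. Slc7a3 (chromosome X, 101079210 to 101086020, minus strand), a cell surface carrier of arginine, lysine and ornithine, had 281 and 302 counts with auxin, against 991 and 856 counts without. The groups lay far apart, at 19.3 ± 2.0 CPM with auxin and 63.8 ± 8.2 CPM without (SD, n = 2 each). The level was 3.31-fold lower with auxin (log2 fold change −1.73, SE 0.11, edgeR adjusted p = 1.96e-06). By size of change it ranked 110 among the 13522 tested genes, and the log2 value lay between −1.86 and −1.59 when each library was left out. Its relatives that carry the same amino acids were not called. Slc7a1 stood at 184 and 190 CPM with auxin, against 187 and 203 CPM without (log2 fold change −0.06, edgeR adjusted p = 0.487), and Slc7a2 at 5.83 and 6.41 CPM with auxin, against 4.21 and 7.32 CPM without. The ratio of Slc7a3 to Slc7a1 per length was 0.224 and 0.188 with auxin, against 0.742 and 0.568 without.

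Asns (chromosome 6, 7675169 to 7693254, minus strand), which makes asparagine and is a standard readout of ATF4 activity, stood at 687 and 682 CPM with auxin, against 663 and 709 CPM without. Both auxin libraries lay inside the range of the others. The log2 fold change was −0.0031, with a 95% interval of −0.11 to 0.11 (edgeR adjusted p = 0.970), so a change of more than 0.11 on this scale lay outside the interval.

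Phgdh and Psat1 catalyse the first steps of serine synthesis from a glycolytic intermediate, and Psph the last. Phgdh (chromosome 3, 98313170 to 98339990, minus strand) stood at 47.8 and 52.7 CPM with auxin, against 60.8 and 61.4 CPM without, with no overlap. The log2 fold change was −0.28 (SE 0.08, edgeR adjusted p = 0.0175). The call ended without the first auxin replicate (adjusted p = 0.0929), without the first (0.0545) or second (0.0548) no-auxin replicate and with DESeq2 (0.0518). The log2 fold change was −0.21 without the first auxin replicate and −0.29 and −0.28 without the first and second no-auxin replicates. Without the second auxin replicate it was −0.35, and the call held. Psat1 (chromosome 19, 15904678 to 15947337, minus strand) stood at 113 and 108 CPM with auxin, against 117 and 136 CPM without. Both auxin libraries were below both others. The log2 fold change of −0.19 was not called (95% interval −0.35 to −0.03, which is not adjusted for the number of genes, edgeR adjusted p = 0.0689). It was called without the first auxin replicate (adjusted p = 0.0233) or the first no-auxin replicate (0.0134), while without the second no-auxin replicate the change was −0.088 (0.497). Psph, at 17.8 and 19.7 CPM with auxin against 19.8 and 19.7 CPM without, was not called (log2 fold change −0.08, edgeR adjusted p = 0.637).

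**Figure D2:**
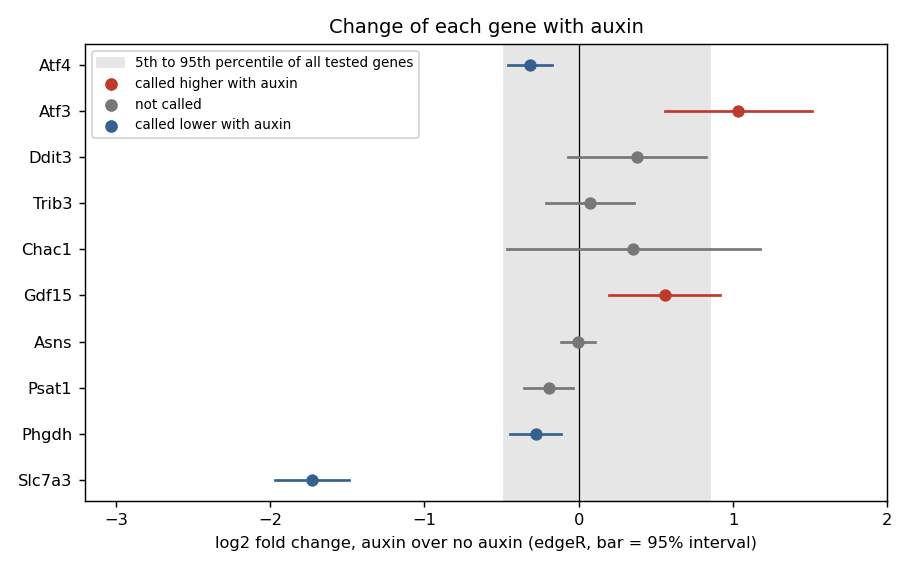
Log2 fold change of each gene, auxin over no auxin, from the edgeR fit (point) with its 95% interval (bar), over a grey band for the 5th to 95th percentile of all 13522 tested genes (−0.49 to 0.85). Slc7a3 at −1.73 and Atf3 at 1.04 lay outside the band, and the other 8 points lay inside it.

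**Figure D3:**
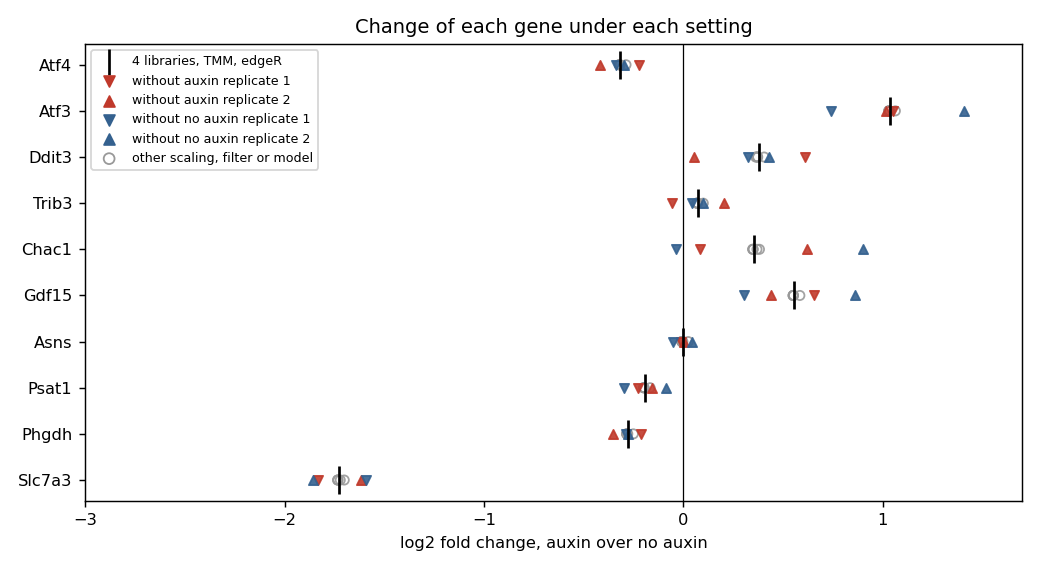
Log2 fold change of each gene, auxin over no auxin, with all 4 libraries (black bar), with 1 library left out (triangles) and with other scaling factors, filter or model (open circles). The triangles spread widest for Chac1, from −0.038 to 0.90, and Atf4, Psat1, Phgdh and Slc7a3 stayed below 0 while Atf3, Ddit3 and Gdf15 stayed above it.

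The levels of the 10 genes spanned a wide range. Per length, in TPM computed from the counts and the exon lengths, Asns led with 621 and 662 TPM with auxin, against 560 and 620 TPM without. Atf4 followed, with 245 and 302 TPM with auxin and 302 and 323 TPM without. Without auxin, Atf4 lay above 97.1% of the tested genes, Trib3 above 50.0% and Chac1 above 16.6%.

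With auxin the order from the top was Asns, Atf4, Psat1, Phgdh, Gdf15, Trib3, Slc7a3, Ddit3, Atf3 and Chac1. Only Slc7a3 and Ddit3, and Ddit3 and Atf3, overlapped with the next gene. Without auxin the order was Asns, Atf4, Psat1, Phgdh, Slc7a3, Gdf15, Trib3, Ddit3, Atf3 and Chac1, and only Gdf15 and Trib3 overlapped. Slc7a3 thus stood at rank 7 with auxin and at rank 5 without.

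TPM are not scaled by TMM, and over the tested genes the median log2 ratio of auxin to no auxin was 0.12 higher in TPM than in CPM. In TPM the 2 groups did not overlap for 7 genes, a count for which no share over all tested genes was computed. Asns (621 and 662 TPM with auxin, against 560 and 620 TPM without), Trib3 and Ddit3 then lay above the libraries without auxin, while Atf4 and Psat1 overlapped. Changes between the groups were therefore read in CPM.

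**Figure D4:**
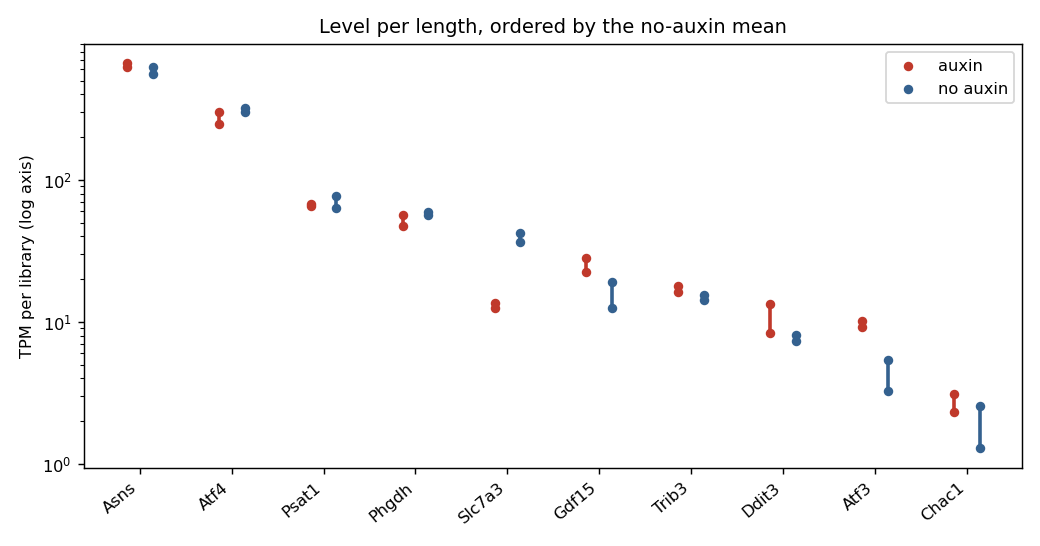
TPM of each gene in the 2 auxin libraries and the 2 libraries without auxin (points joined by a line, log axis), ordered by the mean without auxin. Asns stood highest and Chac1 lowest in both groups, and Slc7a3, at 12.6 to 13.5 TPM with auxin and 36.7 to 42.5 TPM without, had the widest gap.

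The 3 genes whose CPM across the 4 libraries lay closest to that of Atf4, by Euclidean distance between log2 CPM centred per gene, were Nde1 (distance 0.020), Znhit6 (0.027) and Slc16a1 (0.032). Nde1 stood at 85.2 and 96.8 CPM with auxin, against 113 and 116 CPM without. Of the other 9 stress response genes, Phgdh lay closest to Atf4 (distance 0.060, rank 32 of the tested genes). Slc7a3 and Atf3, both at 1.44, lay farthest. These distances rest on 4 libraries.

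Promoter sequences from RefSeq (GRCm38.p6, 250 bases before and 50 after each start) were matched to 9 of the 10 genes by symbol, with none printed for Slc7a3. The element that ATF4 binds with C/EBP partners was searched as TGATGNAA on both strands, where N is any base. It was found for Atf3, Chac1, Asns and Trib3, which is 4 of 9 genes, against 3.97% of the 32851 promoters of the table and 2.68% of the tested genes with a promoter there. The stretch before the start is shown for the 3 genes that held it there, 5′ to 3′ on the gene's strand, with the match in capitals. They lie at chr1:191183334-191183583 (minus strand), chr2:119350992-119351241 (plus strand) and chr6:7693210-7693459 (minus strand).
Atf3: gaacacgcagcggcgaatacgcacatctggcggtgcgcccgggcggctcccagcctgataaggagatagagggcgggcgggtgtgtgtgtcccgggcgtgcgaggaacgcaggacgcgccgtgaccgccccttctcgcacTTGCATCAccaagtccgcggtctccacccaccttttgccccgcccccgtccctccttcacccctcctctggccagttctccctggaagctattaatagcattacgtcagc
Chac1: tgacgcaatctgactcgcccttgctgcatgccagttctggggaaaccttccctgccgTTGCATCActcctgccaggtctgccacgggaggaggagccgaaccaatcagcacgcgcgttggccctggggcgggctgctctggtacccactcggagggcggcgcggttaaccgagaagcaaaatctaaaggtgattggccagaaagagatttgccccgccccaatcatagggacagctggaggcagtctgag
Asns: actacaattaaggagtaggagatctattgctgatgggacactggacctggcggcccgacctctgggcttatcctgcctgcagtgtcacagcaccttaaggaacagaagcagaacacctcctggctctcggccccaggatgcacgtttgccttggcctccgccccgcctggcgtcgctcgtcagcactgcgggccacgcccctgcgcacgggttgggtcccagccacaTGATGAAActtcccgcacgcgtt
Counted from the start, the match lay at bases −110 to −103 in Atf3, −193 to −186 in Chac1 and −23 to −16 in Asns. In Trib3 it lay after the start, at bases 15 to 22, and read TTACATCA on the gene's strand. Of these 4 genes Atf3 rose and the other 3 were not called, while the called genes Atf4, Gdf15 and Phgdh had no match in their windows. The other motifs searched on both strands were the cyclic AMP response element TGACGTCA (1.79% of promoters), the AP-1 element TGANTCA (7.81%) and the ER stress response element (0.119%). Of these, only the AP-1 element was found among the 9 genes, in Ddit3 at bases −242 to −236. No match overlapped another. Over the 265 tested genes with TGATGNAA, 37 were called higher and 43 lower, beside 13% and 14.5% of all tested genes. Their median log2 fold change was 0.06, beside 0.01 for all tested genes of the promoter table.

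H3K27me3, the repressive mark set by PRC2, was mapped with 1 ChIP-seq sample of cells without auxin taken at 6 h and 1 CUT&RUN sample taken at 12 h, whose label says control and does not state that auxin was absent. The peak values are the authors'. Within 1 kb of the start given by the count table, 1 of the 10 genes had a ChIP-seq peak, against 6.91% of the tested genes, and 0 had a CUT&RUN peak, against 7.65%. The peak was that of Chac1, 289 bp wide and 731 bp from the start, with a −log10 q of 1.37. It did not reach a −log10 q of 2. A CUT&RUN peak of 1099 bp lay 1223 bp from the same start, and a window of 2.5 kb would include it.

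Atf3, which rose, had a ChIP-seq peak of 308 bp at 2195 bp and a CUT&RUN peak of 1664 bp at 3192 bp from its start, both inside the gene. For Psat1 the start in the count table lies upstream of the RefSeq start. From the RefSeq start, a ChIP-seq peak of 301 bp lay 973 bp upstream, with a −log10 q of 2.80, and the nearest CUT&RUN peak lay 7784 bp away. For the other 7 genes no peak of either assay lay within 20 kb of the start. The auxin CUT&RUN sample was not analysed here, so the mark was not compared between conditions.

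The rest of the pathway was read from 8 lists, beginning with the machinery upstream of ATF4, which was lower or not called in the main test. The share to set beside each list's counts is that of all tested genes, 13% called higher and 14.5% lower. Of 15 genes for the eIF2 kinases, the phosphatase subunits, eIF2 and its exchange factor eIF2B, 5 fell, 0 rose and 10 were not called (median log2 fold change −0.07, beside 0.01 for all tested genes). With upper-quartile factors 1 of the 15 rose, and with the replicate number as a block 2 rose. None of the kinases was called in the main test. The kinase that senses amino acid lack, Eif2ak4 (GCN2), stood at 47.0 and 44.1 CPM with auxin, against 40.4 and 38.9 CPM without (edgeR adjusted p = 0.0812). Ppp1r15a, whose product (GADD34) guides the phosphatase to eIF2, stood at 37.4 and 43.5 CPM with auxin, against 40.5 and 44.4 CPM without (adjusted p = 0.636). The eIF2B subunit Eif2b5 (log2 fold change −0.22, edgeR adjusted p = 0.00563) and the eIF2 subunit Eif2s1 (−0.26, 0.0233) were among the fallers. Eif2s1 lost its call without the second auxin replicate (0.141) or the first no-auxin replicate (0.125). The count of 5 was 2 without the second auxin replicate, 1 without the first no-auxin replicate, 3 without the second and 2 with DESeq2.

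Among other bZIP and stress factors, 10 were tested, of which 3 rose and 1 fell, with 6 not called (median 0.21). Nupr1, a small stress-induced chromatin protein, stood at 2.58 and 3.39 CPM with auxin, against 1.62 and 1.22 CPM without (log2 fold change 1.08, edgeR adjusted p = 0.0177). Nfe2l2, the NRF2 factor of the antioxidant response, rose 1.22-fold (0.00577), and Atf1 fell by 0.25 on the log2 scale (0.0182). Nupr1 lost its call without the second auxin (0.151) or second no-auxin replicate (0.0849) and with DESeq2 (0.119). Nfe2l2 lost it without the second no-auxin replicate (0.0539), and Atf1 without the second auxin (0.115) or first no-auxin replicate (0.126) and with DESeq2 (0.0510). The number that rose was 1 without the second auxin replicate, 0 without the second no-auxin replicate and 1 with DESeq2. Cebpb, a partner of ATF4, was not called (4.87 and 4.99 CPM with auxin, against 3.37 and 3.32 CPM without, edgeR adjusted p = 0.0595).

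Enzymes of serine, glycine, proline and one-carbon metabolism were lower or not called in the main test. Of 14, 8 fell, 0 rose and 6 were not called (median −0.20). With the replicate number as a block, 1 of the 14 rose and 8 fell. Cth, which makes cysteine, stood at 106 and 110 CPM with auxin, against 138 and 136 CPM without (log2 fold change −0.34, edgeR adjusted p = 0.00129). Shmt1, which splits serine into glycine and a folate-bound carbon, fell by 0.29 on the log2 scale (0.00413). Its mitochondrial counterpart Shmt2 (−0.25, 0.00667) and Mthfd2 (−0.29, 0.0118), named after their values were seen, also fell. Without the second no-auxin replicate 4 of the 14 fell, and with DESeq2 5.

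Cytosolic aminoacyl-tRNA synthetases, which load amino acids onto tRNA and many of which ATF4 can induce, made up the list with most calls. Of 20, 15 fell, 0 rose and 5 were not called (median −0.22). Vars stood at 307 and 331 CPM with auxin, against 428 and 438 CPM without (log2 fold change −0.44, edgeR adjusted p = 0.000158), and Mars fell by 0.34 on the log2 scale (0.000743). Between 12 and 15 fell when each library was left out, and 15 with DESeq2. Of 13 tested amino acid transporters other than Slc7a3, 1 rose, 2 fell and 10 were not called (median −0.0046). Calls over all tested genes took 13% higher and 14.5% lower. Slc43a1, a carrier of large neutral amino acids, stood at 11.6 and 11.7 CPM with auxin, against 5.62 and 6.58 CPM without (1.91-fold, edgeR adjusted p = 0.00116). Slc38a1 fell by 0.25 on the log2 scale (0.00847), with its call lost without the second auxin replicate (0.0630). Slc7a5 fell by 0.29 (0.0370), with its call lost without the second no-auxin replicate (0.271), with upper-quartile factors (0.0566) and with DESeq2 (0.292). The number of risers was 3 without the first auxin replicate and 2 without the second no-auxin replicate or with upper-quartile factors. That of fallers was 1 without the second replicate of either group, with upper-quartile factors and with DESeq2.

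Genes listed as other targets of ATF4 and CHOP, or under the parallel branches of the unfolded protein response, rose or were not called in the main test. This holds for the lists as drawn up, with earlier results of these data known. Genes that ATF4 can induce also stand on other lists and fell there, among them Pmaip1 and aminoacyl-tRNA synthetases. Of 19 tested ATF4 and CHOP targets, 6 rose, 0 fell and 13 were not called (median 0.11). Among all tested genes, 13% were called higher and 14.5% lower. Sqstm1, the autophagy receptor p62, stood at 383 and 388 CPM with auxin, against 267 and 271 CPM without (1.43-fold, edgeR adjusted p = 2.81e-05). Cdkn1a, the cell cycle inhibitor p21, rose 1.57-fold (3.83e-05). Without the first no-auxin replicate 3 rose, and without the second auxin replicate 2 fell. The targets Sesn2, Xpot and Eif4ebp1 had log2 fold changes of −0.06, −0.05 and −0.12 and were not called, and Fgf21 had 0 counts in every library.

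Of 19 genes of the IRE1-XBP1 and ATF6 branches, 5 rose, 0 fell and 14 were not called (median 0.13). Among all tested genes, 13% were called higher and 14.5% lower. With RLE factors or a filter of at least 1 read, 5 of the 19 rose and 1 fell. With the replicate number as a block, 9 rose and 1 fell. The ER chaperone Hsp90b1 stood at 841 and 794 CPM with auxin, against 648 and 620 CPM without (1.29-fold, edgeR adjusted p = 0.000465), and Sel1l, a part of ER-associated degradation, rose 1.28-fold (0.00164). Hspa5 (BiP), at 611 and 612 CPM with auxin against 567 and 551 CPM without, was not called (adjusted p = 0.0604). When libraries were left out in turn the list kept risers, and without the second auxin replicate it also held a faller.

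Gdf15 and Atf3 are also targets of p53. Of 17 tested p53 targets, 10 rose, 1 fell and 6 were not called (median 0.24). Cdkn1a, Bbc3, Sesn2 and Tnfrsf10b stand on this list and on that of ATF4 and CHOP targets. Plk2 stood at 272 and 310 CPM with auxin, against 166 and 194 CPM without (1.62-fold, edgeR adjusted p = 0.000114). Pmaip1, the death gene NOXA that ATF4 can also induce, stood at 87.4 and 100.1 CPM with auxin, against 131 and 139 CPM without (log2 fold change −0.52, adjusted p = 0.000458). Between 7 and 10 of the 17 rose when each library was left out. The part of p53 in the rise of Atf3 and Gdf15 was not tested.

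**Figure D5:**
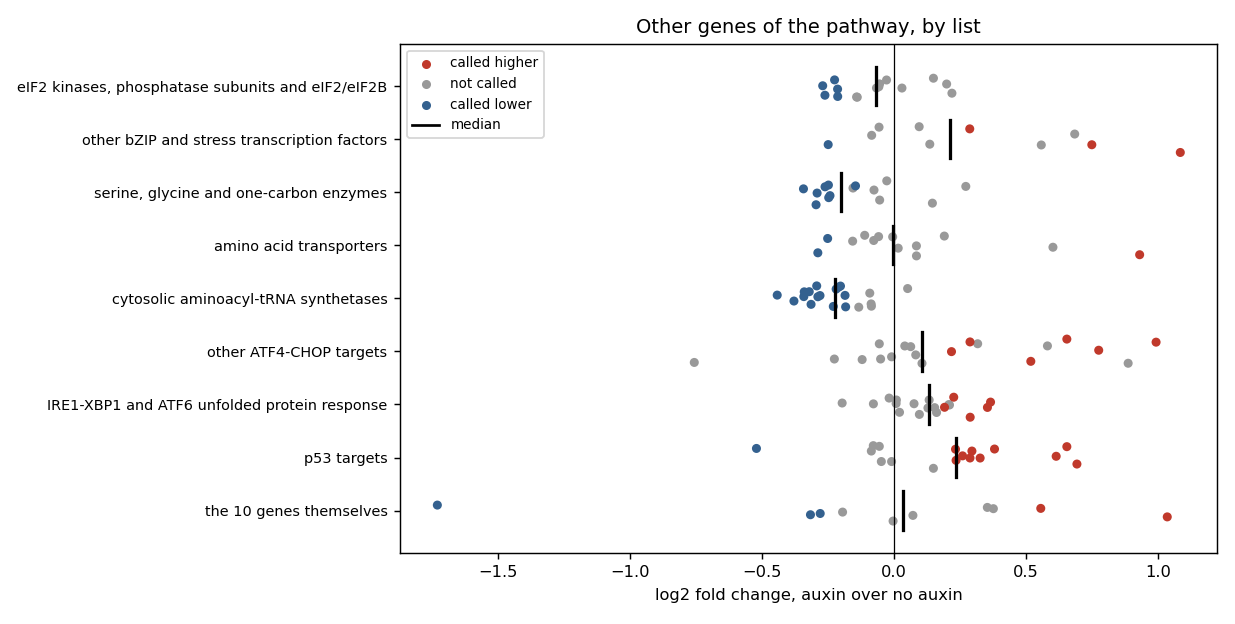
Log2 fold change, auxin over no auxin, of every tested gene of the 8 lists and of the 10 stress response genes (points, coloured by call, spread vertically at random within a row), with the median as a black bar. The medians lay at −0.22 for aminoacyl-tRNA synthetases and −0.20 for one-carbon enzymes, at 0.13 for the IRE1-XBP1 and ATF6 list and at 0.24 for p53 targets.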

How the data were processed

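RNA was measured in 4 libraries of polyadenylated, strand-marked cDNA read as pairs. Per the file headers, the authors counted fragments over exons on the reverse strand with featureCounts 1.6.3 and an mm10 annotation, without an option for multi-mapped reads, and the deposited values are raw counts per gene name. Per the submitters' processing notes, reads were aligned with STAR 2.6.1d. The deposited peak lists give the authors' score, fold enrichment, −log10 p and −log10 q of broad peaks from 1 sample each. Per the submitters' processing notes, Bowtie2 2.4.1 and MACS2 2.1.1 were used, and the peaks' control sample and cutoff are not stated in any header or label at hand.

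The test was edgeR 4.0.16 on the counts, run in R 4.3.3 (TMM, default expression filter, quasi-likelihood F test, two-sided, Benjamini-Hochberg adjustment over 13522 genes, threshold 0.05), auxin against no auxin, with no covariate. SE was derived from F as the size of the log2 value divided by the root of F, and intervals are 95% from its t distribution. The script was tested on simulated data. Replicates were not repeat deposits (chi-square over its degrees of freedom 12.0 with auxin and 4.08 without). Named genes were all 10 members and, per list, up to 2 called in each direction with the smallest p, plus the 3 genes nearest to Atf4. Other list genes given with values were chosen after these were seen. The members and lists were chosen with earlier results of these data known. Alternatives were RLE and upper-quartile factors, a filter of at least 1 read, DESeq2 1.42.0, a replicate block and leaving out each library.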

Additional observations from a re-analysis of the deposited data

How the results depend on the processing

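Leaving out each library moved the count of all genes called between 1225 and 1705 higher and between 1257 and 1914 lower, against 1759 and 1964 with all 4 libraries. It moved the count of the 10 genes called between 1 and 3 higher and between 2 and 3 lower. DESeq2 called 949 genes higher and 1375 lower in all, and of the 10 it called 1 higher and 2 lower. No label says whether same-numbered libraries were paired, and their deviations correlated across genes at r = 0.30. With the replicate number as a block, 2972 genes were called higher and 3177 lower, 35 genes of the lists were higher against 23, and among the 10 Psat1 was also called (adjusted p = 4.58e-05). Values that changed sign, none of them called, were those of Trib3 (−0.055 to 0.20 with 1 library left out), Chac1 (−0.038 to 0.90) and Asns (−0.053 to 0.041, with 0.0043 without auxin replicate 2, and 0.024 with upper-quartile factors). The cause was not tested. For the other named genes, 180 values under the alternatives kept direction and call and 18 lost the call. With a filter of at least 1 read, Psat1 was called (0.0178). For H3K27me3, a window of 2.5 kb gave 2 of the 10 genes by ChIP-seq and 1 by CUT&RUN. Of all tested genes, that window gave 11.8% and 12.55%. A −log10 q of at least 2 gave 0 of the 10 genes by either assay, against 3.60% of tested genes by ChIP-seq and 2.76% by CUT&RUN. The RefSeq start (an alternative chosen after seeing the data) gave 2 by ChIP-seq, with no share computed over all tested genes. The settings for list genes and lists were likewise added after seeing the data. Chac1, Atf3 and Ddit3 rest on 13 to 145 counts a library, which limits their precision. Fits with a library left out take their spread only from the group that keeps both, so their calls are a weak check.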
